A study of Mus musculus with 18 samples.

Results

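Carbonic anhydrases interconvert carbon dioxide and water with bicarbonate and a proton. In the stomach they are best known in parietal cells, where the reaction supplies protons for the acid pump of the luminal side and bicarbonate for export at the basal side, and in mucous surface (pit) cells, where bicarbonate is secreted into the mucus layer. The family is divided by place in the cell: Car2, Car3, Car7 and Car13 encode cytosolic enzymes, Car5b encodes a mitochondrial enzyme, Car4 encodes an enzyme held at the outer cell surface by a lipid anchor, and Car9 and Car12 encode transmembrane enzymes with an extracellular active site. Car8 encodes a related protein without carbonic anhydrase activity. These 9 genes, chosen by name, were followed across the clusters of both single-cell datasets, out of 31201 gene names in the 2 count tables together.

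Cells came from gastric units of male wild-type C57BL/6J mice aged 10 weeks, without treatment, in 2 datasets that each held 2 pools of 3 mice, each pool being 1 biological replicate. Dataset 1 covered corpus and antrum in 6 plates of 384 wells (pools 1 and 2; 491 kept cells in 15 clusters). Dataset 2 covered the corpus in 12 plates (pools K and T; 3993 kept cells in 20 clusters). In both datasets the 2 pools were prepared by different operators. Cells were sorted for viability, which in dataset 2 also required a DNA stain, and their RNA was read by Quartz-Seq2, a plate method that counts unique molecular identifiers (UMIs) at transcript ends. A plate held between 3054370 and 5346035 UMIs in dataset 1 and between 10540256 and 12850942 in dataset 2, and kept cells had at least 2500 detected genes. The same 384 well barcodes were on every plate of a dataset, so a barcode named a cell only together with its plate.

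Cell types below are the authors' clusters, with the authors' names for the types of dataset 2 and for the pit, neck and parietal cells of dataset 1. Isthmus-like cells of dataset 1 and the clusters outside these types are called from their marker genes. Pit, isthmus, neck, chief and parietal cells are called the major epithelial types, since endocrine and tuft cells of the stomach are epithelial too. Dataset 2 held mature pit (121 cells), pre-pit (291), isthmus progenitor (1285), neck (1247), chief (180) and parietal cells (702). Dataset 1 held corpus mature pit (26), corpus pre-pit (46), antrum mature pit (49), antrum pre-pit (32), isthmus-like (53), neck (45) and parietal cells (57). The pit, isthmus and parietal marker genes were all highest in the types of those names, while the neck marker Tff2 in both datasets and the chief marker Pga5 in dataset 2 were not highest in theirs. Levels are in CPM, the UMI count of a gene scaled to the total UMI count of its type, given for each pool, and they describe a type's RNA, not the amount per cell. Differences are log2 fold changes from edgeR's quasi-likelihood test on UMI sums per type and pool, with a standard error (SE) and a p-value adjusted over all genes tested, called at an adjusted p under 0.05. The clusters were built from these same counts, so the p-values say how far apart the authors' clusters lie.

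On the GRCm39 assembly, Car13 (chr3:14706783-14728077), Car3 (chr3:14928489-14937595) and Car2 (chr3:14951317-14967568) lie on the plus strand of one region, with 13721 bases between Car3 and Car2. Car9 lies at chr4:43506966-43513729 (plus strand), Car8 at chr4:8141533-8239088 (minus strand) and Car5b at chrX:162759818-162811025 (minus strand). Car4 lies at chr11:84848020-84856879, Car7 at chr8:105261321-105276994 and Car12 at chr9:66615426-66674186, all on the plus strand. Values are for whole genes, exons of all transcripts together. The sequences before the starts of Car9 and Car5b are shown because these 2 members differed between corpus and antrum pit cells (below). Each is the 250 bases before a RefSeq gene start on the older GRCm38.p6 assembly, read 5′ to 3′ on the gene's strand, at chr4:43506776-43507025 for Car9 (plus strand) and chrX:164028011-164028260 for Car5b (minus strand). Capitals mark the letters ACGTG or GCGTG on either strand, the 2 forms of the core of the element that hypoxia-inducible factors bind.
Car9: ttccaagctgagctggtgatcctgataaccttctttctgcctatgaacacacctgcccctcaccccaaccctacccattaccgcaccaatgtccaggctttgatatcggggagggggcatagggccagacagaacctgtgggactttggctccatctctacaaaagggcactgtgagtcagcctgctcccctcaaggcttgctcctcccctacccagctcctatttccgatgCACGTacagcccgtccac
Car5b: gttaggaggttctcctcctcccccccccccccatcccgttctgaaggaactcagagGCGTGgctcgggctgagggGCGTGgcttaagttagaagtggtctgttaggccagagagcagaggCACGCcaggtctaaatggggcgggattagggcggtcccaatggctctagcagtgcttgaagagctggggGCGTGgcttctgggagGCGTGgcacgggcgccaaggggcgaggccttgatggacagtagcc
One match was found for Car9, 18 bases before the start and reading CACGT on the gene's strand, and 5 for Car5b, the farthest 194 bases before the start. Among 32841 promoters of the same length, 38.6% held at least 1 match. Promoters were at hand for 5 of the 9 members, and matches were also found in promoters of Car7 but in none of Car4 and Car12.

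Car2 took most of the family's UMIs in both datasets. It had 518560 of them in dataset 2 (85.1% of all UMIs of the 9 members, in 3960 of 3993 cells) and 73056 in dataset 1 (90.3%). Car9 followed with 76285 (12.5%) and 5666 (7.0%). Car5b had 7044 UMIs in dataset 2, Car13 had 5280 and Car8 had 1944. The others were sparse there, with 355 UMIs of Car4, 88 of Car12, 75 of Car7 and 46 of Car3. Summed over members, the level was 7033 CPM in pool K and 7408 CPM in pool T of pre-pit cells, 5385 and 5375 CPM in isthmus cells, 3246 and 3542 CPM in parietal cells, and 465 and 610 CPM in chief cells.

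**Figure D1:**
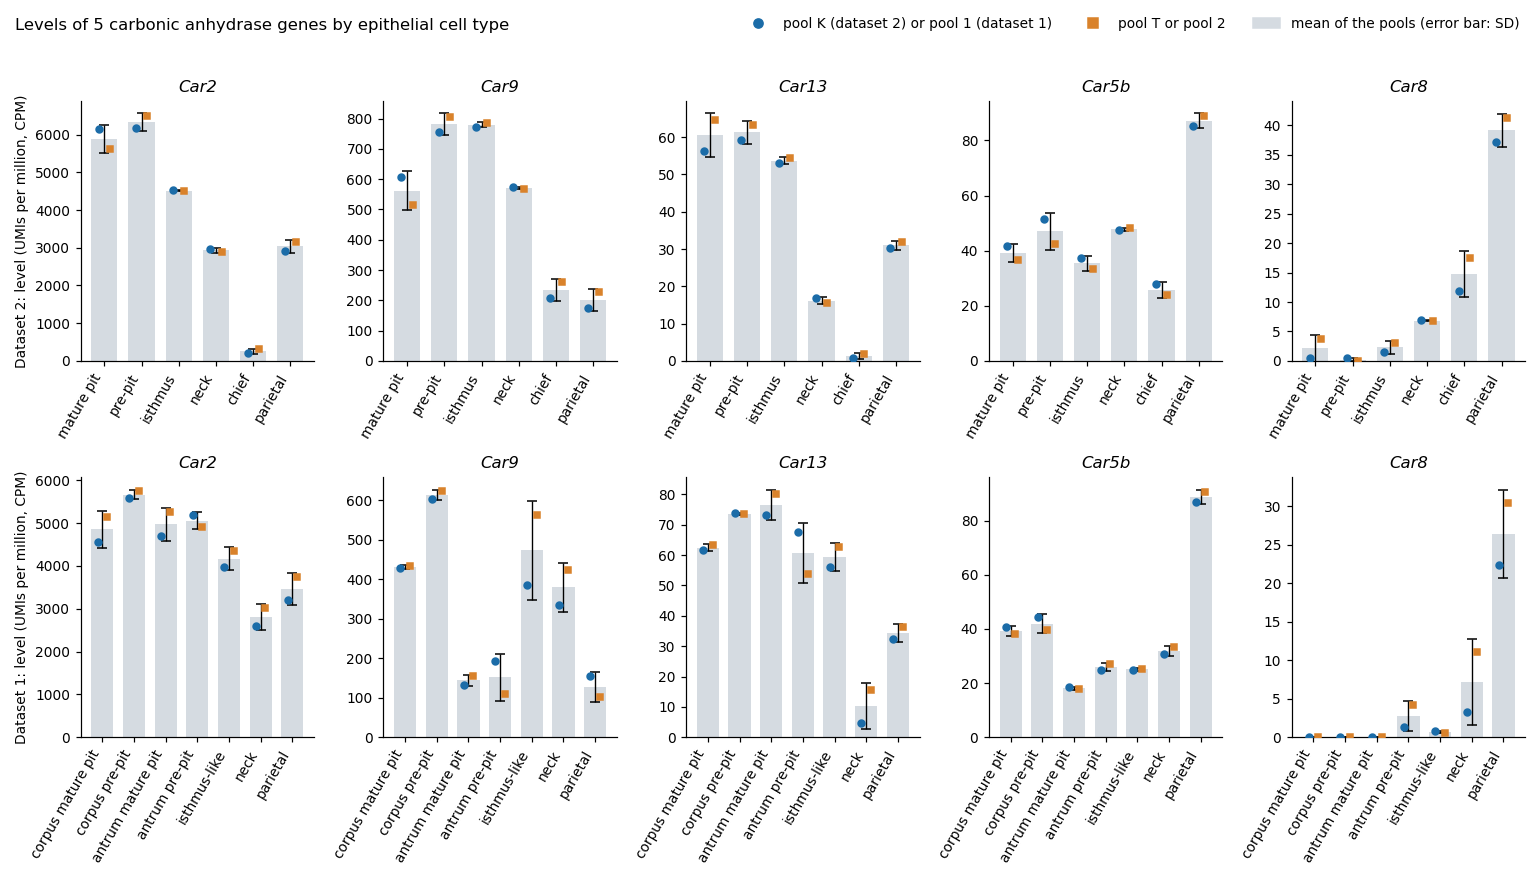
Levels (CPM, linear axes from 0) of 5 members by epithelial cell type, dataset 2 above and dataset 1 below; points are the 2 pools, bars their mean and error bars the SD (n = 2 pools). Car2 and Car13 stood highest in pit types and lowest in chief cells of dataset 2, Car5b and Car8 stood highest in parietal cells among the types shown, and Car9 was lower in both antrum pit types (110 to 194 CPM) than in both corpus pit types (427 to 622 CPM).

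Car2, the abundant cytosolic enzyme, was high in pit cells, intermediate in parietal and neck cells and lowest in chief cells. In dataset 2 its level in pools K and T was 6164 and 6493 CPM in pre-pit cells, 6156 and 5627 CPM in mature pit cells, 4518 and 4496 CPM in isthmus cells, 2917 and 3152 CPM in parietal cells, 2976 and 2887 CPM in neck cells, and 215 and 308 CPM in chief cells. The pools of parietal and neck cells overlapped, whereas every other neighbouring pair in that order was separated, and the order of the 2 pit types turned with TMM scaling. The mean of pre-pit cells was 24.2 times that of chief cells. Car2 was higher in pit cells than in the other types by 1.68 on the log2 scale (SE 0.08, adjusted p = 4.81e-10). The mean of the other types included chief cells, whose low level enlarged this difference. Car2 was higher in pre-pit than in isthmus cells by 0.70 (SE 0.13, adjusted p = 0.0013). It was lower in neck than in isthmus cells by -0.56 (SE 0.13, adjusted p = 0.00295) and lower in chief than in neck cells by -2.66 (SE 0.14, adjusted p = 8.34e-09).

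For parietal cells the direction of Car2 depended on what they were set against. Against the mean of all 5 other types, Car2 was higher by 0.40 (SE 0.10, adjusted p = 0.00245), a call lost with scaling by library size only (0.20, adjusted p = 0.0783). With chief cells left out of that mean it was lower, at -0.29 (adjusted p = 0.025), and against isthmus cells alone it was -0.07 (SE 0.13, adjusted p = 0.651), or -0.57 with library size only (adjusted p = 0.000801). In dataset 1, whose 7 types compared did not include the chief-like cluster 10, Car2 in parietal cells was 3196 CPM in pool 1 and 3733 CPM in pool 2, between isthmus-like (3979 and 4358 CPM) and neck cells (2588 and 3025 CPM). Its difference from the other types there was -0.22 (SE 0.10, adjusted p = 0.064), called with pool as a block (adjusted p = 0.0286), with library size only (-0.37, adjusted p = 0.00379), with DESeq2 (-0.24, adjusted p = 0.0462) and on leaving out any of 5 sums. Mitochondrial transcripts took a median of 20.5% and 18.1% of UMIs per parietal cell in pools K and T, against 4.33% and 4.20% per isthmus cell, and the part of this in the CPM values was not tested. Red blood cells also carry much Car2, and their part in the Car2 levels was not tested. The 5 erythroid markers summed to 11 UMIs over the 3826 cells of the major epithelial types of dataset 2 and were all at 0 in both parietal clusters.

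Car13, the other abundant cytosolic member, followed Car2 across types. Its level was 59.1 and 63.4 CPM in pre-pit cells, 56.3 and 64.6 CPM in mature pit cells, 53.1 and 54.4 CPM in isthmus cells, 30.2 and 31.8 CPM in parietal cells, 16.8 and 15.5 CPM in neck cells, and 0.770 and 1.83 CPM in chief cells. Only the 2 pit types overlapped. Car13 was higher in pit cells than in the other types by 2.05 (SE 0.09, adjusted p = 4.51e-10). Here too the mean of the other types included chief cells, whose low level enlarged the difference. Between pre-pit and isthmus cells Car13 was higher by 0.40 (adjusted p = 0.00898). This call was lost with library size only (0.19, adjusted p = 0.157) and without pool T of pre-pit cells (0.29). Between neck and isthmus cells it was lower by -1.67 (SE 0.10, adjusted p = 1.95e-08), and between chief and neck cells by -2.71 (SE 0.31, adjusted p = 1.04e-05), the chief values resting on 2 and 7 UMIs. As with Car2, its difference for parietal cells was positive against all other types (0.73, SE 0.10, adjusted p = 1.87e-05) and -0.11 with chief cells left out (adjusted p = 0.252). In dataset 1 Car13 ran from 73.2 and 80.1 CPM in antrum mature pit cells to 4.84 and 15.5 CPM in neck cells.

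Car9, the transmembrane enzyme known as a target of hypoxia-inducible factors, was highest in pre-pit and isthmus cells and lowest in parietal and chief cells. In dataset 2 it measured 756 and 807 CPM in pre-pit cells, 773 and 785 CPM in isthmus cells, 574 and 567 CPM in neck cells, 608 and 516 CPM in mature pit cells, 209 and 259 CPM in chief cells, and 176 and 227 CPM in parietal cells. Within each of those 3 pairs the pools overlapped, and between the pairs they did not. Car9 was lower in parietal than in isthmus cells by -1.45 (SE 0.13, adjusted p = 1.88e-07) and lower than in the other types of dataset 1 by -1.21 (SE 0.18, adjusted p = 8.94e-06). Its difference between mature pit and pre-pit cells, -0.34 (SE 0.13, adjusted p = 0.114), was not called, but was called with pool as a block (adjusted p = 0.037) and in 3 other settings, among them library size only (-0.48, adjusted p = 0.0259). Its lower level in neck than in isthmus cells, -0.38 (SE 0.13, adjusted p = 0.0209), was no longer called when any 1 of the 4 sums was left out (adjusted p from 0.051 to 0.0788).

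Car5b, the mitochondrial enzyme, and Car8, the inactive relative, were the members that stood highest in parietal cells among the types compared. Car5b measured 85.4 and 89.0 CPM in parietal cells of dataset 2, 47.4 and 48.1 CPM in neck cells, 51.6 and 42.3 CPM in pre-pit cells, 41.6 and 36.8 CPM in mature pit cells, 37.3 and 33.4 CPM in isthmus cells, and 27.7 and 23.8 CPM in chief cells. No other type reached the parietal values, and in dataset 1 the parietal level was again 86.9 and 90.6 CPM, above all 6 other types. Car5b was higher in parietal cells than in the other types by 1.40 in dataset 2 (SE 0.07, adjusted p = 1.76e-10) and by 1.76 in dataset 1 (SE 0.11, adjusted p = 8.81e-11). Its chief level could not be ordered against neck cells, since the difference was -0.09 (SE 0.12, adjusted p = 0.614) with TMM scaling and -0.91 (adjusted p = 2.72e-05) with library size only.

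Car8 was measured at 37.2 and 41.2 CPM in parietal cells of dataset 2, 11.9 and 17.5 CPM in chief cells, 6.88 and 6.77 CPM in neck cells, 1.5 and 3.11 CPM in isthmus cells, and 0.462 and 3.78 CPM in mature pit cells, with 2 UMIs in all pre-pit cells. It was higher in parietal than in isthmus cells by 4.54 (SE 0.28, adjusted p = 3.09e-09), higher in neck than in isthmus cells by 1.58 (SE 0.31, adjusted p = 0.000851) and higher in chief than in neck cells by 1.96 (SE 0.34, adjusted p = 0.000463). In chief cells of pool T, 23 of 67 UMIs were in 1 cell, and without it the level was 11.6 CPM, close to pool K. In dataset 1 Car8 measured 22.4 and 30.5 CPM in parietal cells and 3.22 and 11.1 CPM in neck cells, and 3 of the 4 pit types held none. The chief-like cluster 10, which was not among the types compared, had 13.6 and 48.4 CPM from 6 and 20 UMIs, a range that covers both parietal values. In its pool 2, 11 of the 20 UMIs were in 1 cell, and without it the level was 24.3 CPM.

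Shares of cells gave the same order for Car8. With each cell thinned to 10000 UMIs, 27.2% of parietal cells had a Car8 UMI (95% exact binomial interval 24 to 30.7), against 9.44% of chief cells (5.60 to 14.7) and 0.344% of pre-pit cells (up to 1.90), the type taken as background, and unthinned the shares were 69.1%, 25.6% and 0.344% at median depths of 47647, 34844.5 and 32262 UMIs. These intervals cover counting error only.

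Of the 9 members, 6 passed the filter on low counts in dataset 2 (Car2, Car3, Car5b, Car8, Car9 and Car13). No test of Car3 is given, since with so few UMIs it passed through the pit types where its level was highest, and the counts that follow are over the other 5. Between parietal cells and the other types, 4 were called higher and 1 lower, beside 67.8% of all genes called either way (35.2% higher and 32.6% lower), and between pit cells and the other types 3 higher and 1 lower, beside 55.4% (24.8% higher and 30.6% lower). In both, most genes of the table were called, so these counts do not set the members apart. Car5b, not called in pit cells (-0.13, adjusted p = 0.154), was called lower there with chief cells left out (-0.22, adjusted p = 0.0201). In dataset 1, 6 members passed the filter for the comparison of parietal cells with the other types. No test of Car8 and Car12 is given there, since they passed through parietal and neck cells, where their levels were highest. Of Car2, Car5b, Car9 and Car13, Car5b was higher and Car9 was lower, beside 58.6% of all genes. The share called was 71.8% between parietal and isthmus cells, 50.7% between neck and isthmus cells, 38.6% between chief and neck cells, and 27.8% between pre-pit and isthmus cells, where 4, 5, 4 and 4 of the 5 were called. Of these calls, that of Car13 between parietal and isthmus cells (-0.29) was lost without pool T of isthmus or pool K of parietal cells (both -0.26). The call of Car9 between chief and neck cells (-0.46) was lost without pool K of chief cells (-0.34). Between mature pit and pre-pit cells edgeR called no member, beside 10.4% of genes. There Car8 and Car9 had an unadjusted p under 0.05, with adjusted p of 0.102 and 0.114, and DESeq2 called none of the 4 abundant members.

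Genes that work beside the enzymes in acid secretion lay almost wholly on the parietal side. Of 12 such genes, 11 were called higher in parietal cells of dataset 2 than in the other types. The list's median was 4.86, against -0.03 over all genes, of which 35.2% were called higher and 32.6% lower. The other gene, the sodium/proton exchanger Slc9a4, was lower (-0.28, SE 0.08, adjusted p = 0.00467) than that mean of types, which included chief cells. Against isthmus cells alone, none of the 12 was called lower. Parietal markers such as Atp4b and Kcnq1 belong to the same machinery, so the count describes the authors' clusters and is no test of them. Slc4a2, the basal chloride/bicarbonate exchanger, measured 1646 and 1598 CPM in parietal cells and at most 101 CPM in any other type. Of 18 bicarbonate, chloride and proton transporters, 11 were tested, of which 5 were higher and 3 lower in parietal cells, a share called near the 67.8% of all genes. Slc26a6, another chloride/bicarbonate exchanger, was 81.7 and 76.5 CPM there and at most 8.88 CPM elsewhere, a difference of 4.22 (SE 0.11, adjusted p = 5.46e-13). Slc4a4, which carries bicarbonate into cells with sodium, had the opposite pattern, with 82.7 and 78.0 CPM in mature pit cells and 2.68 and 3.11 CPM in parietal cells, and was higher in pit cells by 2.97 (SE 0.09, adjusted p = 1.11e-11). In the pit comparison 5 of the 11 were higher and 5 lower, beside 55.4% of all genes called, with a median of -1.01 against -0.09 over all genes.

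**Figure D2:**
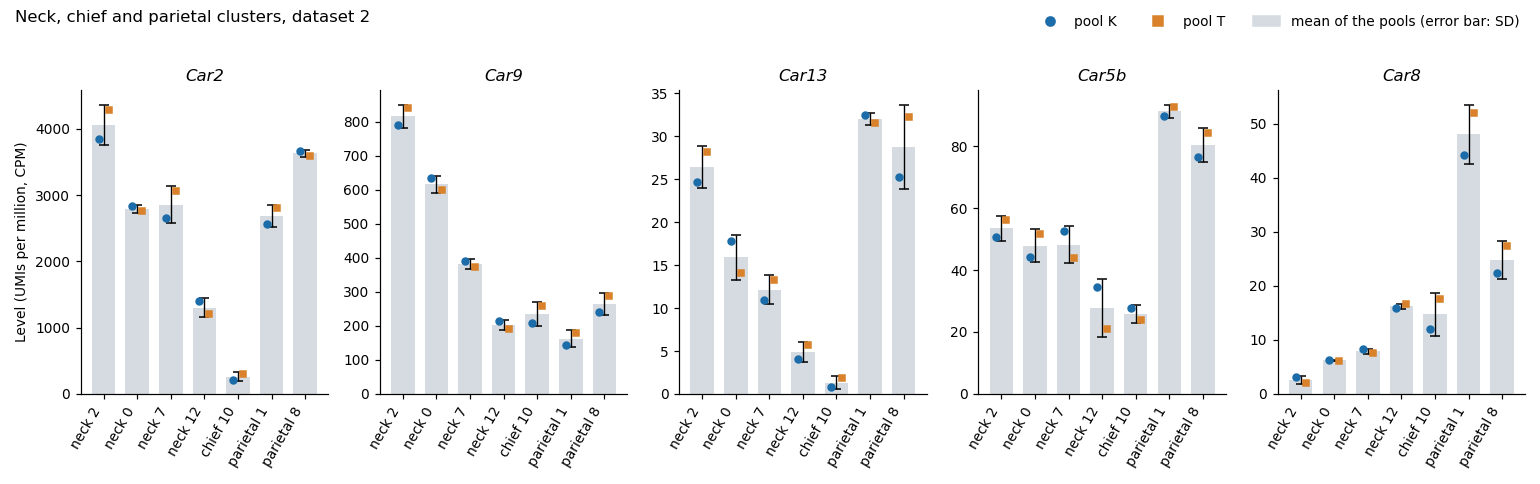
Levels (CPM, linear axes from 0) of 5 members in the neck, chief and parietal clusters of dataset 2; points are pools K and T, bars their mean and error bars the SD (n = 2 pools). Car2, Car9 and Car13 were lowest among neck clusters in cluster 12, where Car8 was highest, and parietal cluster 1 had more Car8 and less Car9 than parietal cluster 8.

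Within neck cells the members differed between clusters. The 4 chief markers, mostly the pepsinogen gene Pgc, summed to 216849 and 209733 CPM in cluster 12, against 196225 and 191998 CPM in chief cells and 115314 to 179632 CPM in the other neck clusters. The authors found Pgc RNA in most gastric epithelial cells, so this sum does not mark chief cells alone. They proposed an intermediate state between neck and chief cells for cluster 12, which had both Muc6 and the chief marker Cblif. Cluster 12 had the lowest Car2 of the 4 neck clusters (1400 and 1200 CPM), against 3844 and 4276 CPM in cluster 2, 2835 and 2753 CPM in cluster 0, and 2655 and 3055 CPM in cluster 7. Car9 went from 791 and 840 CPM in cluster 2 to 213 and 192 CPM in cluster 12, and Car13 from 24.7 and 28.1 CPM to 4.11 and 5.74 CPM, with no overlap between cluster 12 and the others for any of the 3 genes. Car8 ran the other way, with 3.11 and 2.01 CPM in cluster 2 and 15.9 and 16.6 CPM in cluster 12. Against clusters 0, 2 and 7, cluster 12 differed by -1.09 for Car2 (SE 0.15, adjusted p = 1.81e-06), -1.30 for Car9 (SE 0.13, adjusted p = 3.36e-09) and 1.85 for Car8 (SE 0.38, adjusted p = 0.00102). Car13 differed by -1.58 (adjusted p = 0.000461, or 0.0923 without pool K of cluster 12), and Car5b by -0.62 (adjusted p = 0.0129, or 0.49 without its pool T). So 5 of the 9 members were called, beside 6.98% of all genes.

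The 2 parietal clusters also differed. Cluster 8, with a median mitochondrial share of 12% and 13.9% of UMIs in pools K and T, had 22.3 and 27.4 CPM of Car8 and 241 and 288 CPM of Car9, and cluster 1, at 23.1% and 21.8%, had 44.2 and 52.0 CPM of Car8 and 145 and 180 CPM of Car9. The part of the mitochondrial share in these differences was not tested. Car8 was higher in cluster 1 by 1.15 (SE 0.23, adjusted p = 0.000292), and Car9 was lower by -0.50 (SE 0.14, adjusted p = 0.00954). The Car9 call was lost without pool K of cluster 1 (-0.32, adjusted p = 0.289) or pool T of cluster 8 (-0.29, adjusted p = 0.31). Car5b (0.39, adjusted p = 0.0106) and Car13 (0.36, adjusted p = 0.0434) were called higher in cluster 1, and neither was called with library size only (adjusted p = 0.281 and 0.421). The Car5b call was also lost without pool K of cluster 8 (0.33, adjusted p = 0.142), and the Car13 call without pool K (0.36, adjusted p = 0.171) or pool T (0.44, adjusted p = 0.0513) of cluster 1 or pool K of cluster 8 (0.21, adjusted p = 0.472). Car2, at 2563 and 2806 CPM in cluster 1 against 3661 and 3595 CPM in cluster 8, was not called (-0.22, SE 0.17, adjusted p = 0.418), though it was with library size only (-0.43, adjusted p = 0.0406). These were 4 calls among the 9 members tested, the sparse ones included, beside 19.8% of all genes called.

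Among isthmus clusters, 5 and 6 hold the progenitors that express the proliferation factor Foxm1. Car5b was lower in them, at 32.8 and 30.3 CPM in cluster 5 and 26.5 and 24.5 CPM in cluster 6 against 39.5 to 44.5 CPM in clusters 3, 9 and 11, a difference of -0.57 (SE 0.09, adjusted p = 9.76e-06). Car13 was called higher by 0.24 (SE 0.08, adjusted p = 0.0306), and this call was lost on leaving out any of 5 of the 10 sums (adjusted p up to 0.0966), with DESeq2 (0.20, adjusted p = 0.0649) and without a filter on low counts (adjusted p = 0.0802). Car2 differed by -0.27 (SE 0.11, adjusted p = 0.0688), a difference called with DESeq2 and with pool as a block (adjusted p = 0.00186 and 0.0112). DESeq2 also called Car8 (-1.08, adjusted p = 0.0414) and Car9 (-0.21, adjusted p = 0.011) lower. By edgeR the difference of Car8 was -1.05 (adjusted p = 0.149), and on leaving out 1 sum it ran from -1.33 to -0.45, the latter without pool T of cluster 11. Of the 9 members tested here, the sparse ones included, edgeR called 2, beside 23% of all genes. This count does not set the members apart.

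**Figure D3:**
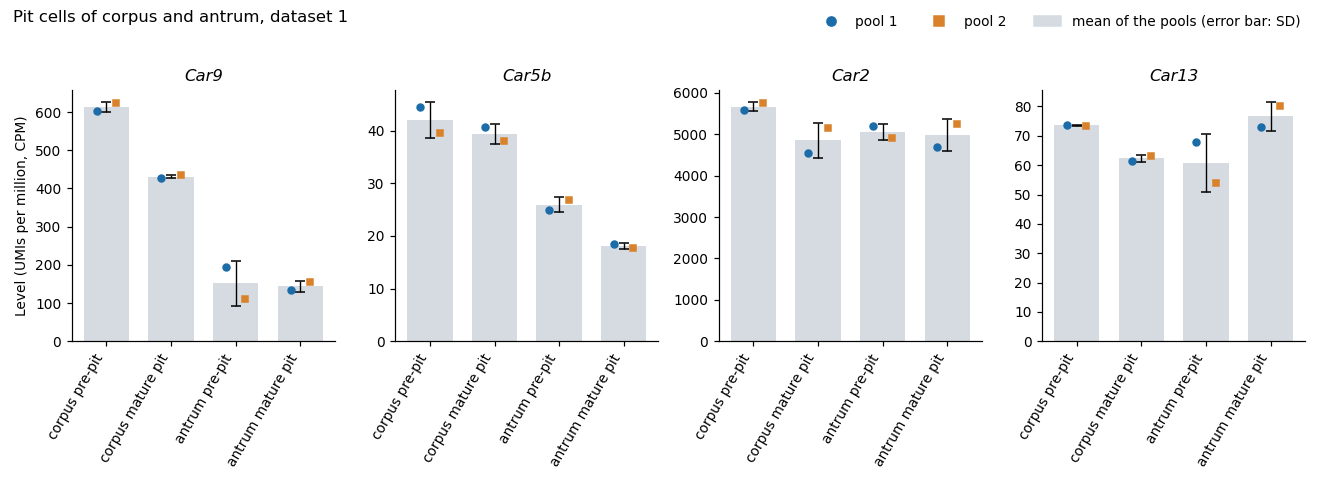
Levels (CPM, linear axes from 0) of 4 members in the pit clusters of dataset 1; points are pools 1 and 2, bars their mean and error bars the SD (n = 2 pools). Car9 and Car5b were higher in both corpus clusters than in both antrum clusters, while the pools of Car2 overlapped between regions.

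Dataset 1 held corpus and antrum pit cells of the same pools of mice. The region is that of the authors' clusters, and the main fit did not pair the regions by pool. Car9 measured 604 and 622 CPM in corpus pre-pit cells and 427 and 434 CPM in corpus mature pit cells, against 194 and 110 CPM in antrum pre-pit cells and 133 and 154 CPM in antrum mature pit cells. Every corpus value lay above every antrum value, and Car9 was higher in corpus by 1.80 (SE 0.16, adjusted p = 4.01e-07). Car5b was also higher in corpus, by 0.93 (SE 0.16, adjusted p = 0.000623), with 38.0 to 44.4 CPM against 17.7 to 26.9 CPM. Car2 differed by 0.08 (SE 0.09, adjusted p = 0.707) and Car13 by -0.01 (SE 0.14, adjusted p = 1.0). Thus 2 of Car2, Car5b, Car9 and Car13 were called, both higher, beside 9.24% of all genes called (3.75% higher and 5.48% lower). Car8 and Car12 are left out, since they passed the filter on low counts through parietal and neck cells.

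Of 14 genes known as targets of hypoxia-inducible factors, 12 were tested in this comparison. Of these, 2 were called, both higher in corpus, beside 9.24% of all genes called (3.75% higher). With so few genes, this count does not set the list apart. The 2 were Egln3, an oxygen-sensing prolyl hydroxylase (2.66, SE 0.21, adjusted p = 1.16e-07), and Adm, the peptide adrenomedullin (2.25, SE 0.49, adjusted p = 0.00535). Egln3 measured 127.6 to 169.2 CPM in corpus and 4.14 to 60.4 CPM in antrum pit cells. The list's median was 0.07, against -0.01 over all genes. The glucose transporter Slc2a1 (0.07, adjusted p = 0.803) and the growth factor Vegfa (-0.42, adjusted p = 0.407) were among the 10 not called.

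By edgeR, maturation changed none of Car2, Car5b, Car9 and Car13 by a called amount in either region. Car8 and Car12 are again left out, having few or no UMIs in pit cells. Between corpus mature pit and corpus pre-pit cells the smallest adjusted p was that of Car9 (-0.32, SE 0.20, adjusted p = 0.331), beside 12.9% of all genes called. In antrum it was Car13 (0.58, SE 0.20, adjusted p = 0.0675), beside 14% of all genes. The difference between regions in this change was called for no member, beside 0.0293% of all genes. At an unadjusted p under 0.05 there were 0 members in corpus, 1 in antrum (Car13) and 1 for the difference (Car13). DESeq2 called none of Car2, Car5b, Car9 and Car13 in any of the 3.

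**Figure D4:**
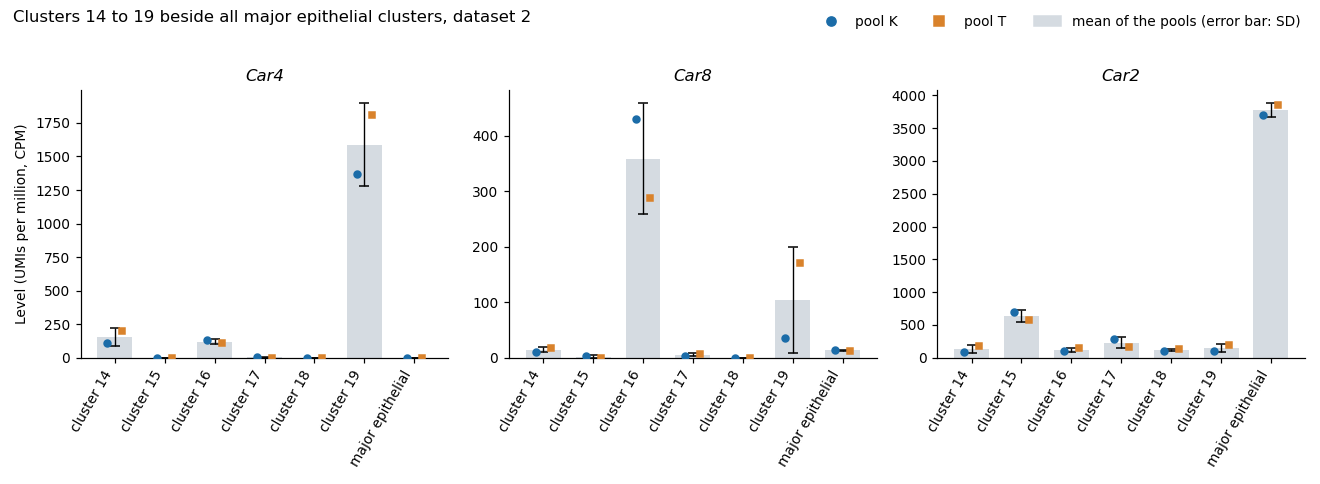
Levels (CPM, linear axes from 0) of Car4, Car8 and Car2 in clusters 14 to 19 of dataset 2, beside all major epithelial clusters together; points are pools K and T, bars their mean and error bars the SD (n = 2 pools). Car4 stood at 1368 and 1809 CPM in cluster 19, Car8 at 430 and 288 CPM in cluster 16, and Car2 was below 700 CPM in each of the 6 clusters.

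Car4, the lipid-anchored surface enzyme, was highest in endothelial-like cells, lower in some endocrine cells and near 0 in the major epithelial types. It measured 0.0911 and 0.366 CPM over all cells of the major epithelial types of dataset 2, from 6 and 26 UMIs, and 1368 and 1809 CPM in cluster 19, an endothelial-like cluster in which all 5 endothelial markers were detected, where each of its 9 cells had Car4 UMIs (38 and 74 in all). Cluster 14, with the 3 markers of histamine-producing enterochromaffin-like (ECL) cells, had 109 and 200 CPM, and cluster 16, with the 3 markers of somatostatin-producing D cells, 133 and 106 CPM. In pool T of cluster 16, however, 24 of 27 Car4 UMIs were in 1 cell. Cluster 17, with the 3 markers of ghrelin-producing cells, had 1 Car4 UMI in its 29 cells. In dataset 1 Car4 measured 678 and 684 CPM in the endothelial-like cluster 13 and 24.5 and 348 CPM in the endocrine cluster 9, against 1 and 2 UMIs in the 308 cells of the major epithelial types and 0 in chief-like cluster 10. In pool 1 of cluster 13, 21 of 29 Car4 UMIs were in 1 of 4 cells, and without it the level was 333 CPM. The 24.5 CPM of cluster 9 in pool 1 came from 3 UMIs in 1 cell. No test of Car4 is given, since it passed the filter on low counts through the clusters where it was high.

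Car8 reached its highest level in the D cell-like cluster 16, at 430 and 288 CPM, with a UMI in 28 of 31 cells, against 13.3 and 12.7 CPM over the major epithelial types, a difference of 5.91 from their clusters (SE 0.30, adjusted p = 1.65e-18), beside 36.7% of all genes called. In pool K, 35 of 68 Car8 UMIs of the cluster were in 1 cell, and without it the level was 240 CPM. After thinning to 10000 UMIs, 88.9% of its 27 remaining cells had a Car8 UMI (exact interval 70.8 to 97.6). Endocrine cluster 9 of dataset 1, in which ghrelin, gastrin, somatostatin and ECL markers were all detected, had 114 and 35.4 CPM, with 9 of 14 and 8 of 11 UMIs in 1 cell of each pool, and 46.5 and 10.2 CPM without these cells. In tuft-like cluster 14 of dataset 1, all 15 Car8 UMIs were in 2 cells, 1 of each pool.

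Car2 and Car9 were low in all of these clusters. Car2 measured 698 and 576 CPM in cluster 15, in which tuft, stromal and smooth muscle markers were each at their highest, and between 93.1 and 287 CPM in clusters 14, 16, 17, 18 and 19. Car9 was 110 and 29.0 CPM in cluster 15 and at most 51.8 CPM in the other 5. Both were called lower than in the major epithelial clusters in all 6, beside 46.4%, 27.9%, 36.7%, 39.6%, 20.4% and 16.9% of all genes called in clusters 14 to 19 in that order, for Car2 by -2.88 (SE 0.17, adjusted p = 1.47e-16) in cluster 15 and by more in the others. In dataset 1, cluster 13 had 16 Car2 UMIs (110 CPM over both pools), of which 9 were in the 1 cell that held all 4571 erythroid marker UMIs of the cluster, and without that cell the level was 52.6 CPM. Chief-like cluster 10 of dataset 1 had 148 and 131 CPM of Car2 and 168.04 and 164.49 CPM of Car9, and no Car13 UMI.

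Cluster 5-7 of dataset 1 (70 cells), in which all 6 enterocyte markers were detected (44003 and 39256 CPM in all, led by Apoa1), had 908 and 521 CPM of Car2, 247.5 and 166.9 CPM of Car9 and 37.4 and 40.9 CPM of Car13. Car5b had 1 UMI there. Against the major epithelial clusters, Car2 was lower by -2.29 (SE 0.31, adjusted p = 2.01e-07) and Car5b by -5.12 (SE 0.54, adjusted p = 2.59e-09), beside 44.5% of all genes called. Car4 had 10 UMIs there. Car8, with 8 UMIs there, was called higher than the mean of the major epithelial clusters on the log2 scale (2.595). That mean included pit clusters without a Car8 UMI, while parietal cells had 22.4 and 30.5 CPM. The call was lost without pool 1 of cluster 5-7 (1.66). Clusters 11 and 12, with stromal markers, and 16, with all 5 macrophage markers, had at most 235 CPM of Car2, and 1 Car9 UMI in all.

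The sparse members gave isolated signals. Car12, a transmembrane enzyme, had 39 of its 49 UMIs of dataset 1 in neck cells (27.4 and 24.4 CPM), in 9 of 45 cells, and 26 of the 39 were in cells that also had Pdx1, a transcription factor of the antrum. In dataset 2, without antrum, 1247 neck cells held 15 Car12 and 11 Pdx1 UMIs. Whether the Car12 cells came from the antrum was not tested. Car7 had 28 and 36 UMIs in the major epithelial types of dataset 2, at 0.425 and 0.507 CPM. In endothelial-like cells it had 2 UMIs in cluster 19 of dataset 2 and, in cluster 13 of dataset 1, 9 UMIs in pool 2 and none in pool 1. Car3, best known from muscle and fat, had 46 UMIs in dataset 2, of which pre-pit and mature pit cells held 18 and isthmus cells 21.

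In pool T of isthmus cluster 11 (109 cells), a few cells held many UMIs of the sparse members. All 21 Car4 UMIs were in 1 cell, which also had 274 UMIs of Chga, an endocrine marker that most cells of the cluster lacked. Of 57 Car8 UMIs, 20 were in 1 cell, and of 21 Car12 UMIs, 17 were in 3 cells. One cell of the cluster, with 4 Car12 UMIs, held 384 UMIs of the 4 squamous markers, of which no other cell of dataset 2 had more than 2.

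Of 7 further family members, Car11 had 358 UMIs in dataset 2, Car14 had 84 and Car15 had 38, and the others 5 or fewer. Car11, another protein without enzymatic activity, was highest among the major epithelial types in chief cells (7.70 and 9.92 CPM) and higher still in ECL-like cluster 14 (39.9 and 53.0 CPM). Car14, a transmembrane enzyme, measured 84.4 and 38.99 CPM in cluster 17, which had the markers of ghrelin-producing cells, and below 1 CPM in every major epithelial type.

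Over the 6 plates of a pool, Car2 in isthmus cells ran from 4168 to 4650 CPM (median 4561) in pool K and from 4221 to 4873 CPM (median 4472) in pool T. Among 6 types, 2 member calls were made between the pools of dataset 2, 1 in chief and 1 in parietal cells, beside 1.23% and 2.24% of all genes. The share of genes called was 5.1% in isthmus, 1.09% in mature pit, 9.99% in neck and 2.02% in pre-pit cells, where edgeR called 0 members and 2 had an unadjusted p under 0.05 (Car9 in mature pit and Car2 in pre-pit cells). DESeq2, where run for a member in these 4 types, called none. In chief cells Car2 was higher in pool T by 0.58 (SE 0.11, adjusted p = 0.0115), with plates of 242 to 404 CPM (median 317) against 177 to 229 CPM (median 217), which did not overlap. There 3 of 107 cells held 355 of the 1178 Car2 UMIs of pool T, and without them the level was 224 CPM, beside 190 CPM for pool K without its own top 3 cells. In parietal cells Car9 was higher in pool T by 0.34 (SE 0.08, adjusted p = 0.0197), with plates of 187 to 263 CPM against 153 to 202 CPM, and the call was lost without plate p05 or plate p09 (adjusted p = 0.0524 and 0.0521). Plates of 1 pool share their mice, so these tests compare 2 pools, not conditions.

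Across the 20 clusters of dataset 2, the genes whose mean levels ran most like those of Car2 were Spink4 (Pearson r = 0.977), Car13 (0.966) and Fam83c (0.965), among 12293 genes with at least 200 UMIs. For Car9 they were Upk1a (0.963), Gm7285 (0.957) and A930004D18Rik (0.955), for Car13 they were Car2 (0.966), Plce1 (0.964) and Btc (0.961), and for Car5b they were Bcat2 (0.951), Cpox (0.9495) and Slc12a2 (0.922). Likeness was lower for Car8, with Gpr146 (0.858), Nim1k (0.805) and Hdgfl3 (0.803). Car4 was most like Efr3b (0.929), Gnas (0.900) and Trappc11 (0.898). With Spearman's rho none of these kept its place among the first 3. Over the 15 clusters of dataset 1 the correlation was 0.766 for Car2 with Car13. Over all pairs named it ran from 0.222 (Car4 with Trappc11) to 0.923 (Car4 with Efr3b). It was 0.301 for Car8 with Nim1k and 0.466 for Car8 with Gpr146. For Car5b it was 0.326 with Cpox and 0.452 with Bcat2, and for Car9 with A930004D18Rik it was 0.449. All clusters share their plates and differ in depth, so these values are descriptions.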

How the data were processed

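Files and samples. Samples were grouped by pool from their labels. UMI counts per gene and well, made by the authors with STAR 2.7.8a and Drop-seq tools 2.4.1 on GRCm39 with GENCODE M27, and their table of kept cells and clusters (Seurat 4.1.0), were used as deposited. The percent of mitochondrial UMIs per cell is the authors' value. Gene positions came from GENCODE M39. The members and gene lists were chosen with earlier results of these data known.

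Counts of kept cells were summed per type or cluster and pool. Main tests were edgeR 4.0.16 quasi-likelihood fits (TMM scaling, filterByExpr, Benjamini-Hochberg adjustment over all genes), tested on simulated data, with every type of a dataset in 1 fit; pool T against K used plates as units. Alternatives were DESeq2 1.42.0, library-size scaling, no filter, pool as a replicate block, plates as units, cells with at least 4000 genes, and leaving out each sum. Pools pair samples because they share mice; deviations of 2 types of 1 pool correlated at 0.108 to 0.640 (median 0.249) in dataset 2 and -0.0152 to 0.158 in dataset 1. A UMI count of 0 allows up to 3 counts. The genes named were the 9 members, the lists' leading genes, and the 3 most alike genes for each member with at least 200 UMIs. No doublet caller was run, as wells were sorted singly.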

Additional observations from a re-analysis of the deposited data

Results flagged for a closer look

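Over the plates of a pool in dataset 2, 2 of 45 sets had a plate far from the others by Dixon's test, which chance gives in about 1 in 20. Car2 in mature pit cells of pool K had its highest plate at 7022 CPM, with the next at 6271 CPM and the lowest at 5885 CPM. Car13 in isthmus cells of pool K had its lowest plate at 48.2 CPM.

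The change of Car13 from pre-pit to mature pit cells went opposite ways in both pools of dataset 1, at -0.26 and -0.21 on the log2 scale in corpus and 0.11 and 0.57 in antrum. These values were scaled by library size. With TMM scaling the fitted change in corpus was -0.04 (edgeR, adjusted p = 0.928), and by DESeq2 it was 0.0060. The fitted difference between regions was -0.62, and its adjusted p by edgeR was 0.801.

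Wells outside the kept cells also held UMIs of the members. In dataset 1, 1813 such wells held 3016503 UMIs, with Car2 at 604 CPM, Car9 at 54.4, Car13 at 12.3, Car4 at 9.28, Car8 at 5.64, Car5b at 4.31 and Car12 at 2.98 CPM. In dataset 2, 615 such wells held 1654145 UMIs, with Car2 at 769 CPM, Car9 at 82.8, Car4 at 23.0, Car5b at 14.5, Car13 at 10.9, Car8 at 10.3 and Car7 at 7.86 CPM.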

How the results depend on the processing

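With only 2 pools per dataset, p-values measure the spread between these pools, and the sparse members (Car3, Car4, Car7 and Car12) rest on a few UMIs per type. Leaving out a whole pool gave values with no test, single plates were left out for mature pit and parietal cells, and a lone remaining sum was assumed to vary like the others.

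Counts of genes called by edgeR moved by over 1.5 times as follows. DESeq2 called 548 genes between corpus and antrum pit cells (main 945), 672 for corpus maturation (1323), 696 for antrum maturation (1427), 12 for the difference in maturation (3) and 685 between pools in neck cells (1033). Without a filter there were 97 for the difference in maturation, and between pools 138 in chief (58), 204 in mature pit (59), 458 in parietal (217) and 272 in pre-pit cells (156). With library size only, 9800 were called between chief and neck cells (5358) and 2419 for neck cluster 12 (1067). With plates as units, 2590 were called between mature pit and pre-pit cells (1439), 1836 for neck cluster 12, 4847 for cluster 18 (3120) and 5030 for cluster 19 (2588). With at least 4000 genes per cell, 1114 were called for cluster 14 of dataset 1 (2300), 1086 for cluster 18 and 640 for cluster 19 of dataset 2.

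Leaving out 1 sum at a time gave 624 to 958 genes for antrum maturation, 420 to 1236 for corpus maturation and 2 to 8 for their difference. In dataset 1 it gave 1772 to 1960 for cluster 10 (3162), 2104 to 2966 for cluster 11 (4017), 2051 to 2960 for cluster 12 (3968), 1629 to 2707 for cluster 13 (3570), 966 to 1422 for cluster 14, 1395 to 1907 for cluster 16 (2894), 3228 to 4562 for cluster 5-7 (5322) and 2204 to 3994 for cluster 9 (4562). In dataset 2 it gave 465 to 1189 between mature pit and pre-pit cells, 2073 to 2731 between pre-pit and isthmus cells (3867), 1527 to 2309 between parietal clusters (3021), 387 to 943 for neck cluster 12, 2383 to 3201 for cluster 15 (4265), 3362 to 4161 for cluster 16 (5619), 1625 to 1961 for cluster 18 and 1174 to 1485 for cluster 19. Between pools it gave 35 to 73 in mature pit and 90 to 303 in parietal cells.

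Pool as a replicate block left 150 results as they were and moved the count for the difference in maturation to 12. It called 5 member results that edgeR without the block did not, among them Car9 between mature pit and pre-pit cells (adjusted p = 0.037). These 5 include a result of Car3, for which no test is given.

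Directions reversed as follows, and the cause was not tested. With chief cells left out of the comparison, an alternative chosen after seeing the data, parietal cells gave -0.29 for Car2 and -0.11 for Car13, both called higher otherwise. All other reversals between the sums were of differences that were not called. With library size only, Car2 and Car9 in antrum maturation were -0.028 and -0.13, Car5b in corpus maturation was -0.11, Car5b in cluster 10 and Car13 in cluster 5-7 of dataset 1 were -0.55 and -0.24, Car2, Car3 and Car13 between mature pit and pre-pit cells were -0.10, -0.082 and -0.012, and between pools Car2 was -0.00078 in isthmus and -0.033 in neck cells, where Car8 and Car9 were -0.020 and -0.015. Without a filter, Car13 between corpus and antrum pit cells was 0.016, Car5b in cluster 10 was -0.044, Car8 in cluster 17 was -0.024 and Car2 between pools in neck cells was -0.00019. By DESeq2, Car2 and Car13 in corpus maturation were 0.014 and 0.0060. With at least 4000 genes per cell, Car13 in cluster 5-7 was -0.032 and Car8 in cluster 17 was -0.011, and with plates as units the latter was -0.14.

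Leaving out 1 sum at a time, the range crossed 0 for the following member differences, none of them called. Between mature pit and pre-pit cells it was -0.049 to 0.094 for Car2, -0.43 to 0.90 for Car3 and -0.043 to 0.25 for Car13. In antrum maturation it was -0.14 to 0.65 for Car9, in corpus maturation -0.091 to 0.018 for Car2, and between corpus and antrum pit cells -0.063 to 0.088 for Car13. In dataset 1 it was -0.24 to 0.24 for Car5b in cluster 10, and in cluster 5-7 -0.36 to 0.096 for Car9 and -0.059 to 0.18 for Car13. In dataset 2 it was -0.72 to 0.22 for Car12 between isthmus clusters, -0.65 to 0.45 for Car8 in cluster 17 and -0.016 to 0.10 for Car13 between pools in parietal cells.

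With TMM scaling, the level in pre-pit cells over that in the next type was 0.979 for Car2 and 0.921 for Car13 in dataset 2 and 0.978 for Car2 of corpus pre-pit cells in dataset 1, and with means over cells it was 0.9997 for Car9 in dataset 2.

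With library size only, the share of called genes that were higher fell from 51.9% to 40.6% for parietal cells against the other types, from 49% to 27.2% against isthmus cells, from 48.3% to 7.3% between chief and neck cells, from 44.3% to 14.4% between pre-pit and isthmus cells, from 63% to 34.5% between mature pit and pre-pit cells, from 54.6% to 21% between parietal clusters and from 46% to 12.3% for neck cluster 12. The median of all genes moved by -0.20, -0.50, -0.82, -0.21, -0.14, -0.16 and -0.20 on the log2 scale in the same order. For maturation the share fell from 54.7% to 29.4% in corpus and from 59.4% to 24.5% in antrum (medians -0.20 and -0.28), and between pools from 62% to 42.5% in neck and from 58.3% to 41.3% in pre-pit cells (71.7% by DESeq2). DESeq2 gave 60% for neck cluster 12 and 49.2% for isthmus clusters 5 and 6 (main 61.8%). For single clusters against the epithelial clusters, the share moved by -30.2 to 35.5 percentage points with library size only and by 4.1 to 40.9 with DESeq2, and the median by -0.49 to 0.63 and by 0.10 to 1.90.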
